A study of Homo sapiens with 79 samples.

Results

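Cone phototransduction genes code for the proteins that turn light into an electrical signal in cone photoreceptors. They were taken here as a list of 10 symbols by function: the blue opsin OPN1SW, the transducin subunits GNAT2, GNB3 and GNGT2, the phosphodiesterase subunits PDE6C and PDE6H, the channel subunit CNGB3, the arrestin ARR3 and the guanylate cyclase activators GUCA1A and GUCA1C. The rule uses function and no measured value, though the list was drawn up with earlier results of these data known. Of the 10 genes, 9 were among the 24414 genes of the count table and were followed in all 1976 cells, and GNAT2 was not analysed here. The red and green opsins OPN1LW and OPN1MW were not analysed here either.

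In a cone, light changes the shape of an opsin, which activates the G protein transducin. Transducin activates a phosphodiesterase that breaks down cGMP, and the cGMP-gated channels of the outer segment close. Arrestin binds the activated opsin and ends its signal, and guanylate cyclase activating proteins restore cGMP when calcium falls. Rods use the same steps with their own forms of most of these proteins.

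The cells came from retinal organoids, layered aggregates that resemble the developing retina, grown from H9, an established human embryonic stem cell line (hESC), here with a GFP reporter of CRX. All organoids came from this line and shared the same additions, the ROCK inhibitor Y27632 at the start and then serum, the thyroid hormone T3, taurine and retinoic acid. The number of organoids behind each chip is not given in the sources used here. Cells were captured on Fluidigm C1 chips at day 60 (578 cells, 19 chip columns), at day 90 (661 cells, 20 columns) and at day 200 on 2 chips, D200a (356 cells, 20 columns) and D200b (381 cells, 20 columns). Each column is a library of its own, but the columns of a chip were not said to be separate cultures, and day and chip cannot be told apart at days 60 and 90, so no test between days was made and no p-value is given.

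The deposited counts summed to between 3414268 and 7999822 per column, and cells had medians of 164352, 160343, 251929 and 212201 reads on the chips in that order. The 40 cell barcodes of a column were used again in other columns, each in 35 to 59 of the 79 libraries, and 0 cells shared a barcode within a library. Cells were clustered without the 9 genes, and the cluster called cone-like (232 cells) had 9 of the 10 cone markers IMPG2, RIMS2, SEPT4, RCVRN, LMOD1, RXRG, THRB, CRX, AIPL1 and PRDM1. Its share of cells was 8.30%, 14.5%, 16.0% and 8.14% on the chips in that order. A second cluster of 64 cells, led by CCKBR, GNAT1, PDE6G, ROM1 and NRL, is called rod-like. It also had 5 of the 10 cone markers, so these are not particular to cones. The cone-like cluster in turn had 4 of the 10 markers of the rod list. A cluster of 215 cells had 6 markers of the rod list but was led by VSX1, KLHL35 and SSTR2. VSX1 is best known from bipolar cells, so this cluster is called only the VSX1 cluster. Levels below are reads per 1e6 reads (CPM) of the summed reads of a chip or class, and ranges in parentheses are 95% counting intervals, exact Poisson for levels and exact binomial for shares. They cover counting error only, since these reads carry no molecular identifiers.

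The genes were low or at 0 at day 60 and far higher in the organoids of day 90 and day 200. Their summed level was 122 CPM at day 60, 1344 CPM at day 90, 2534 CPM on D200a and 897 CPM on D200b. A gene was called changed when its level, after adding 1 CPM, differed at least 4-fold between 2 chips and reached 10 CPM on one of them. By that rule all 6 genes that reached 10 CPM were higher at day 90 than at day 60 (GNB3, GNGT2, PDE6H, CNGB3, ARR3 and GUCA1A), beside 2.55% of the 10894 genes tested. On D200a 7 of 7 were higher than at day 60, with GUCA1C added to those 6, beside 4.03% of the 11122 genes tested. On D200b 7 of 7 were higher, with PDE6C in place of GUCA1C, beside 3.08% of 11009. With a pseudocount of 10 CPM the count on D200b was 4, and the share of all genes past the rule was 0.799% there. GNGT2, CNGB3 and ARR3 were under 10 CPM at day 60 and were tested only because of their later level. The same holds for GUCA1C on D200a and PDE6C on D200b. Such genes could not be called lower, so these counts are partly set by the rule. OPN1SW was under 10 CPM on every chip and was not tested. The 3 comparisons share the day 60 chip. In sums over all cells, fewer cone cells and less RNA per cone cell cannot be told apart, so the level in cone-like cells is given beside each gene.

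Between the 2 chips of day 200 every gene with reads, apart from PDE6C, was lower on D200b. ARR3 was 4.57-fold lower and GUCA1C 6.21-fold lower, and these 2 passed the 4-fold rule. GNB3, GNGT2, PDE6H, CNGB3 and GUCA1A were 2.15-fold to 3.51-fold lower and did not. Within the cone-like cells the difference was smaller for 7 of the 8 genes, from 1.05-fold higher on D200b for GUCA1A to 2.95-fold lower for GUCA1C, while PDE6C was 3.32-fold higher on D200b there, with 188 of its 313 cone-like reads on D200a and 240 of 457 on D200b in 1 cell each.

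**Figure D1:**
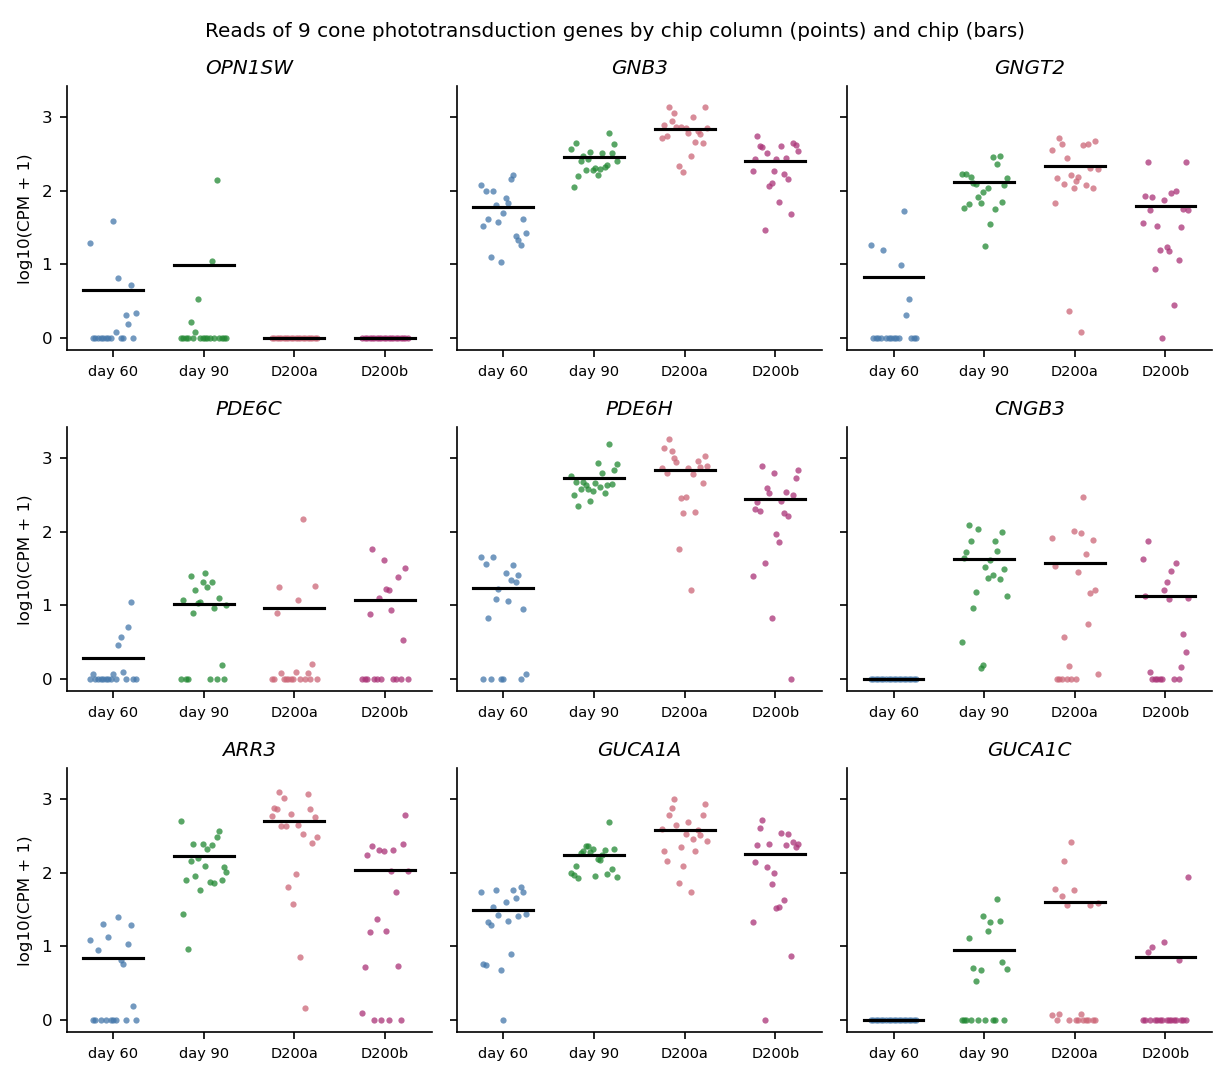
Level of each of the 9 genes in every chip column (points) and in the summed reads of the chip (black bars), on a log10 scale of CPM + 1. The 19 day 60 columns lie below all 20 day 90 columns for PDE6H, CNGB3 and GUCA1A, and all day 200 columns are at 0 for OPN1SW. CNGB3 is at 0 in all 19 day 60 columns. The share of all genes whose columns lie apart in this way was not counted.

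OPN1SW, the opsin of blue cones, lies on the minus strand at chr7:128772485-128775794 (GRCh38). Its level over all cells was 3.53 CPM (3.18 to 3.90) at day 60 and 8.87 CPM (8.34 to 9.43) at day 90, and it was 0 on both day 200 chips. Among columns it ran from 0 to 37.5 CPM at day 60, where 11 of 19 columns were at 0, and from 0 to 137 CPM at day 90, where 15 of 20 were at 0. Few cells carried these reads. At day 60, 11 of 578 cells had a read of OPN1SW and 4 had at least 10. Of these 4 cells, 2 were cone-like, with 107 and 20 reads, and 2 were RGC-like, with 191 and 32 reads and no read of any other of the 9 genes. With 1 column left out the day 60 level was as low as 1.79 CPM. At day 90, 13 of 661 cells had a read and 5 had at least 10, of which 3 were cone-like, with 840, 81 and 12 reads. The cell with 840 reads held 81.8% of the reads of the chip, and without its column the day 90 level was 0.927 CPM. That cell also held 1157 reads of ARR3, 1096 of GNGT2, 995 of PDE6H and 287 of GUCA1C. In its column 6 other cells shared 86 further reads of OPN1SW, 9.29% of the column, and by class they were 3 Müller glia-like cells, 1 RGC-like, 1 rod-like and 1 unnamed cell. On D200a 0 of the 57 cone-like cells had a read, which allows a share of up to 6.27%, and on D200b 0 of 31, which allows up to 11.2%. The 3 cone-like cells with a read at day 90 were 3.13% of 96 (0.649 to 8.86), so the shares at day 90 and day 200 were not distinguishable at these cell numbers. CALU, which overlaps OPN1SW on the opposite strand, had 344, 350.4, 211 and 262 CPM on the 4 chips, so its reads were present where those of OPN1SW were 0.

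The bases before the start of a gene are shown for the opsin and for the 4 other genes used below as examples, to let their promoters be compared. RefSeq windows were found for 7 of the 10 genes. Each sequence is the 250 bases upstream of the RefSeq start, from 5′ to 3′ along the gene (GRCh38.p14), and capitals mark TAATCC, the core bound by CRX and OTX2, on either strand (GGATTA on the opposite one). The windows are chr7:128775795-128776044 on the minus strand for OPN1SW, chr10:93612287-93612536 for PDE6C, chr6:42173114-42173363 for GUCA1A, chr12:14972792-14973041 for PDE6H and chrX:70268084-70268333 for ARR3, these 4 on the plus strand.
OPN1SW: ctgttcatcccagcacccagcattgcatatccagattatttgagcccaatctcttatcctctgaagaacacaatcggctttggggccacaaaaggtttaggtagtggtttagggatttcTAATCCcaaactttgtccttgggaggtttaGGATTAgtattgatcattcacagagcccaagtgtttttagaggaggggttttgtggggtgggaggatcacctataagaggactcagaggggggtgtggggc
PDE6C: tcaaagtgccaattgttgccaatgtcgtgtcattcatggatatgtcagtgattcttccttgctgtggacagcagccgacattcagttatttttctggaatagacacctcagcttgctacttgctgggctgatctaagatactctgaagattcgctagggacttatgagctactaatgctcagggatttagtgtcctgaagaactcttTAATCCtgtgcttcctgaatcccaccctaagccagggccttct
GUCA1A: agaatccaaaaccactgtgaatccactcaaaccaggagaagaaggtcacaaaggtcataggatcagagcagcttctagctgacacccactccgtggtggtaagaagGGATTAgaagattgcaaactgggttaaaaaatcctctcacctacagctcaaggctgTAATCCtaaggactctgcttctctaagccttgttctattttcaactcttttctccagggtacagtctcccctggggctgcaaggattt
PDE6H: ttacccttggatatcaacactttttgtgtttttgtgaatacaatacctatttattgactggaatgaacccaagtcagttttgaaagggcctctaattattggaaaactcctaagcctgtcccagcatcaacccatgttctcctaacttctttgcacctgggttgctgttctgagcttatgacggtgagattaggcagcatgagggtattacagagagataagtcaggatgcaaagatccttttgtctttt
ARR3: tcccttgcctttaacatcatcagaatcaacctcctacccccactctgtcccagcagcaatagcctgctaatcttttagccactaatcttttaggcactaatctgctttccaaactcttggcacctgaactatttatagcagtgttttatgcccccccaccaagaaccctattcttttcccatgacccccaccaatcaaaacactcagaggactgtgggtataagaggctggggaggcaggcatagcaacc
The core was found 2 times for OPN1SW (131 and 101 bases before the start), 1 time for PDE6C (43 bases before) and 2 times for GUCA1A (144 and 88 bases before), and 0 times for PDE6H and ARR3. GUCA1C and GNAT2, the other genes with a window in use, held it 0 times, so it was found for 3 of these 7 genes. Of all 35116 RefSeq windows of this length, 5.62% held it. A match is a description of these letters and not of a bound site.

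GNB3 and GNGT2 code for the beta and gamma subunits of cone transducin. GNB3 (plus strand, chr12:6839954-6847393) is also used by ON bipolar cells. It was the gene with the most reads at day 60, at 59.5 CPM over all cells (columns from 9.76 to 160, median 40.0), and stood at 280.3 CPM at day 90 (111 to 596, median 247), 677 CPM on D200a (179 to 1353, median 673) and 248 CPM on D200b (27.9 to 550, median 268). No column was at 0 on any chip, and the columns of day 60 and of D200a did not overlap. For this gene and those below, the share of all genes with columns apart in this way was not counted. In the cone-like cells it was 422 CPM (409 to 434) at day 60, 999.7 CPM (986 to 1014) at day 90, 2425 CPM on D200a and 1638 CPM on D200b, so 2.37-fold, 5.75-fold and 3.89-fold above day 60. In cells chosen instead by reads of at least 5 of the 10 cone markers it was 547 CPM at day 90, which was 1.37-fold above day 60. At day 60, 41 of the 48 cone-like cells had reads of GNB3.

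GNGT2 (minus strand, chr17:49202791-49210574) started lower. It was 5.78 CPM at day 60 (columns from 0 to 51.4, with 13 of 19 at 0), 129.8 CPM at day 90 (16.7 to 292), 214 CPM on D200a (0.231 to 505) and 60.9 CPM on D200b (0 to 242). The day 60 value rested on 13 cells, and 1 of them held 44.8% of the reads. With 1 column left out the level was as low as 2.35 CPM. Within cone-like cells GNGT2 was 56.8, 563, 907 and 455 CPM in the same order, and 99.0% of its day 60 reads lay in those cells, where 1 column left out gave as little as 24.2 CPM. Reads of GNGT2 were found in 9 of 48 cone-like cells at day 60 and in 75 of 96 at day 90. In cells chosen by cone markers GNGT2 was 278 CPM at day 90, 4.95-fold above day 60.

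PDE6H, the inhibitory subunit of the cone phosphodiesterase, had the highest level per kilobase of exon of the 9 genes on every chip (22, 733, 944 and 377 RPKM at day 60, at day 90, on D200a and on D200b). Over all cells it was 16.0 CPM at day 60 (columns from 0 to 44.9, median 11.4), 533 CPM at day 90 (221 to 1546, median 436), 686 CPM on D200a (15.2 to 1781, median 716) and 274 CPM on D200b (0 to 760, median 227). All 20 columns of day 90 lay above all 19 of day 60. In the cone-like cells it was 139 CPM (132 to 146) at day 60 and 18.1-fold, 24.9-fold and 20.0-fold higher on the later chips. In cells chosen by reads of at least 5 cone markers it was 1131 CPM at day 90 in place of 2510 CPM, 7.67-fold above day 60. At 50000 reads per cell it was detected in 33.3% of the cone-like cells at day 60 and in 95.8%, 94.7% and 93.5% later.

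PDE6C, the catalytic subunit of the same enzyme, had the lowest level per kilobase of the genes with reads at day 60, at day 90 and on D200a, and on D200b CNGB3 was lower. It was 0.943 CPM at day 60, 9.52 CPM at day 90, 8.10 CPM on D200a and 10.7 CPM on D200b, or 0.281, 2.83, 2.41 and 3.19 RPKM. Its values rested on 10, 43, 15 and 17 cells with reads. On D200a 1 cell held 44.7% of the reads, in a column at 146 CPM, and without that column the level was 2.63 CPM. At day 60 leaving out 1 column gave as little as 0.490 CPM. Within cone-like cells PDE6C was 0.756, 39.1, 18.4 and 61.1 CPM, and 8 reads of 1 cell made the day 60 value. With 1 column left out the cone-like level was as low as 7.87 CPM on D200a and 32.1 CPM on D200b. It was detected in 16.8% of the cone-like cells at day 90 at 50000 reads, where PDE6H was detected in 95.8%.

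CNGB3, the modulatory subunit of the cone channel, was the exception to the cone pattern: most of its reads at day 90 lay in RPE-like cells. RPE is the pigment epithelium that lies against the photoreceptors, and the RPE-like cluster had all 10 of its markers, led by PMEL, RNASE1, TYRP1 and BEST1. Over all cells CNGB3 had 0 reads at day 60 (0 of 578 cells, which allows up to 0.636%). It was 41.3 CPM at day 90 (columns from 0.448 to 120, median 31.4), 36.6 CPM on D200a (0 to 290, median 9.11) and 12.4 CPM on D200b (0 to 73.4, median 2.25). Against the limit of 3 reads over the chip, day 90 was at least 1446-fold higher than day 60. RPE-like cells were 6 of 578 cells (1.04%) at day 60 and 78 of 661 (11.8%) at day 90, and within RPE-like cells the same limit of 3 reads gave a ratio of at least 82.6-fold.

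At day 90 CNGB3 was 241 CPM (234 to 249) in the 78 RPE-like cells, 7.53 CPM (6.34 to 8.87) in the 96 cone-like cells and 7.2 CPM (6.62 to 7.81) in all other cells. The RPE-like cells held 85.0% of its reads and the cone-like cells 2.99%. On the day 200 chips, which had 11 and 6 RPE-like cells, the order of the shares turned: cone-like cells held 42.1% and RPE-like cells 36.1% of the reads on D200a, and they held 55.1% and 28.6% on D200b. At 50000 reads it was detected in 66.7% of the RPE-like cells (55.1 to 76.9) and in 9.47% of the cone-like cells (4.42 to 17.2), at median depths of 186697 and 192298 reads. Of the RPE-like cells 55 had a read and 47 had at least 10, and each of the 19 columns with RPE-like cells held one with a read. On D200a the 11 RPE-like cells were at 469 CPM (444 to 496) and the cone-like cells at 87.7 CPM (83.3 to 92.2), and on D200b 3 of the 6 RPE-like cells had reads and the cone-like cells were at 81.7 CPM. The cone-like level was 11.6-fold and 10.9-fold higher on the day 200 chips than at day 90, but single cells carried much of it. The cell with the most reads held 97 of the 143 cone-like reads at day 90, 1019 of 1490 on D200a (68.4%) and 288 of 611 on D200b. Without that cell on each chip the cone-like levels were 2.44, 28.5 and 45.3 CPM. Under the other clusterings and cell filters the RPE-like level at day 90 stayed between 227 and 259 CPM and the cone-like level between 2.49 and 14.7 CPM. The cone-like level ran from 56.1 to 99.2 CPM on D200a and from 36.1 to 93.2 CPM on D200b.

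Of the other genes PDE6C had the largest share of its day 90 reads in RPE-like cells, 19.6%, followed by GNB3 with 10.7%, and the rest had under 3%. In the RPE-like cells of day 90 PDE6H was 104 CPM and ARR3 18.8 CPM, against 2510 and 843 CPM in the cone-like cells, and on D200a they were 0.734 and 1.84 CPM. GNB3 was 206 CPM in the RPE-like cells of day 90 and 394 CPM on D200a, with reads in 65 of 78 and 9 of 11 cells. CPNE3, which overlaps CNGB3 on the opposite strand, was 146 CPM in the RPE-like and 71.3 CPM in the cone-like cells at day 90, and 137 CPM in the other cells at day 60, where CNGB3 had 0 reads. The pigment gene TYRP1 was 1029.8 CPM in the RPE-like and 9.16 CPM in the cone-like cells of day 90. CNGB3 also overlaps UBE2Q2P10 and GOLGA2P1 on its own strand. These were 27.5 and 3.74 CPM in the RPE-like and 1.21 and 0.105 CPM in the cone-like cells of day 90. Both were at 0 in the RPE-like cells of D200a. No level is given for MIOXP1 or for a gene without a symbol that overlaps CNGB3 over 36129 bases on the opposite strand. The counting named no strand setting, and the part of antisense reads or of overlapping genes in the CNGB3 values was not tested.

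**Figure D2:**
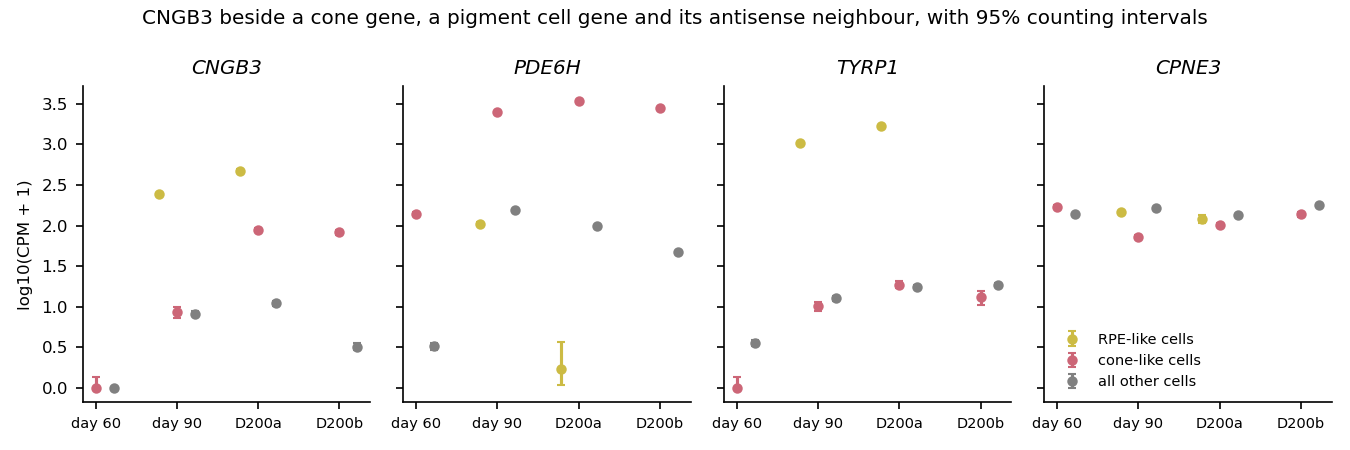
Level of CNGB3, of the cone gene PDE6H, of the pigment gene TYRP1 and of CPNE3, a neighbour of CNGB3 on the opposite strand. Values are for RPE-like, cone-like and all other cells of each chip, on a log10 scale of CPM + 1 with 95% Poisson intervals. Classes under 10 cells are left out. CNGB3 is higher in the RPE-like than in the cone-like cells at day 90 and on D200a, as TYRP1 is, and PDE6H is higher in the cone-like cells.

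ARR3, the cone arrestin (plus strand, chrX:70268305-70281840), had the largest ratio to day 60 of the genes with reads there, 82.0-fold on D200a. It was 6.05 CPM at day 60 (columns from 0 to 23.6, with 9 of 19 at 0), 164 CPM at day 90 (8.13 to 490, median 119), 496 CPM on D200a (0.450 to 1218, median 434) and 109 CPM on D200b (0 to 592, median 38.3). The columns of day 60 and day 90 overlapped, though 19 of the 20 day 90 columns lay above all of day 60. In the cone-like cells it was 42.5, 843, 2604 and 1163 CPM, which is 19.8-fold, 61.2-fold and 27.3-fold above day 60. In cells chosen by reads of at least 5 cone markers it was 8.29-fold, 28.1-fold and 9.69-fold above day 60. At day 90 the median of the cone-like cells was 133 CPM, with quartiles at 0 and 1364 CPM. The highest cell was at 6359 CPM, and 61 of 96 had reads. On D200a 48 of 57 had reads, with a median of 1727 CPM, and on D200b 18 of 31, with a median of 105 CPM. Of all ARR3 reads 70.9% at day 60 and 84.4%, 92.3% and 89.8% later lay in cone-like cells.

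GUCA1A and GUCA1C code for guanylate cyclase activating proteins. GUCA1A (plus strand, chr6:42173364-42181338) was 29.8 CPM at day 60 (columns from 0 to 63.4, median 25.9), 169 CPM at day 90 (82.0 to 474, median 162), 378 CPM on D200a (52.8 to 987, median 327) and 176 CPM on D200b (0 to 512, median 178), and the columns of day 60 and day 90 did not overlap. Within cone-like cells it was 98.6, 815, 1647 and 1736 CPM, and in cells chosen by cone markers 356 CPM at day 90. At day 60 the cone-like cells held 33.4% of its reads, against 76.6% to 82.8% on the later chips. At day 60, 10.5% of the cells outside the cone-like and VSX1 clusters (7.88 to 13.7) had a read of GUCA1A at 50000 reads, with a median of 23 reads in the cells that had any, against 28 in the cone-like cells. Among them 16.3% of the 86 RGC-like cells had reads, with a median of 39.5, and the RGC-like level was 32.9 CPM. On D200a the same median outside the photoreceptor clusters was 1 read, against 524.5 in cone-like cells. GUCA1A overlaps a longer annotated gene on the same strand over 6693 bases, which was not analysed here, so its reads are uncertain in that respect.

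GUCA1C (minus strand, chr3:108907792-108953879) had 0 reads at day 60, and 7.93 CPM at day 90 (columns from 0 to 42.8), 38.6 CPM on D200a (0 to 260) and 6.21 CPM on D200b (0 to 84.9). In the cone-like cells it was 0, 47, 208 and 70.3 CPM, with reads in 0 of 48, 13 of 96, 13 of 57 and 4 of 31 cells. These cone-like cells held 97.3%, 94.6% and 94.9% of its reads on the later chips, the highest share of the 9 genes on each of them. A single cell held 42% of the reads on D200a and 73.1% on D200b, and the lowest levels with 1 column left out were 23.9 and 1.75 CPM over all cells and 117 and 16.9 CPM in the cone-like cells.

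**Figure D3:**
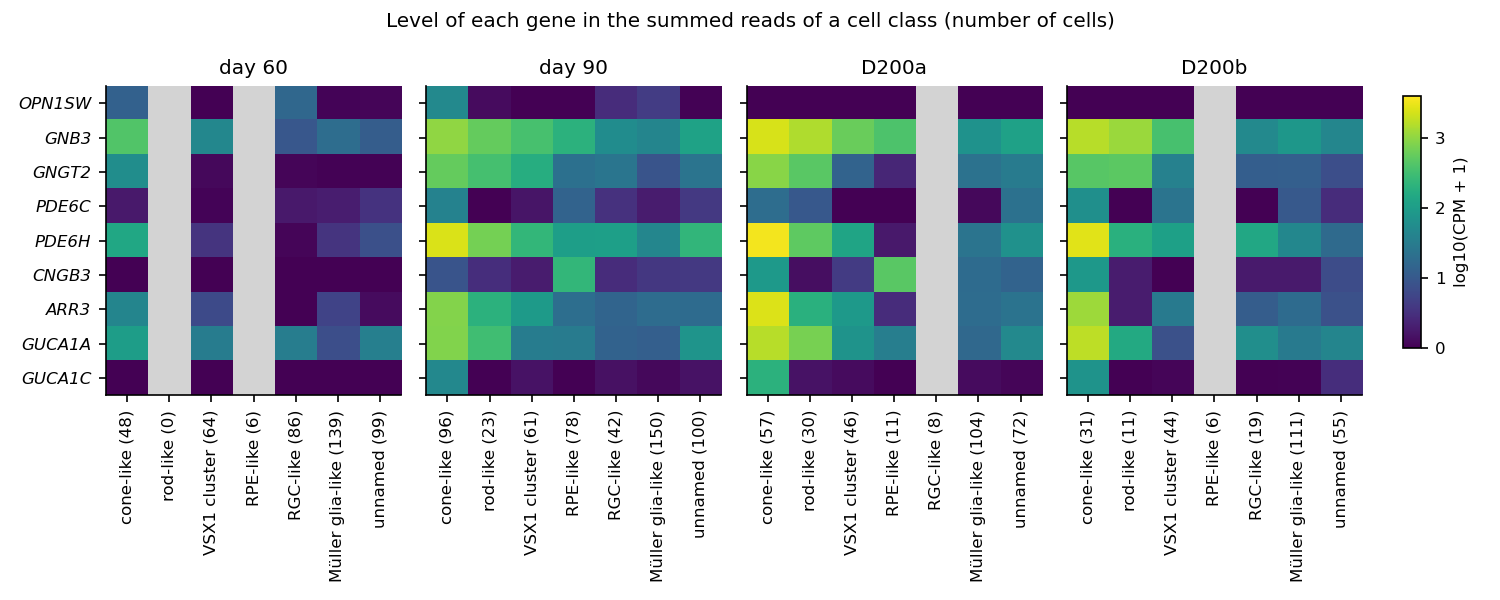
Level of the 9 genes in the summed reads of 7 cell classes of each chip, as a colour scale of log10(CPM + 1), with the number of cells in parentheses. Grey marks classes under 10 cells. The cone-like column is the brightest for most genes, and CNGB3 is brightest in the RPE-like cells at day 90 and on D200a.

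The genes differed in how much of the cone-like signal they made. In the cone-like cells the summed level of the 9 genes was 771 CPM at day 60, 5874 CPM at day 90, 11356 CPM on D200a and 7985 CPM on D200b. GNB3 made 54.7% of these reads at day 60 and 17.0%, 21.4% and 20.5% later. PDE6H made 18.0% at day 60 and 42.7%, 30.5% and 34.8% later, and ARR3 5.51%, 14.4%, 22.9% and 14.6%. When cone-like cells were chosen instead as cells with reads of at least 5 of the 10 cone markers, the summed levels were 2731 CPM at day 90, 6627 CPM on D200a and 3605 CPM on D200b. This choice can take in other photoreceptor cells.

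Per kilobase of exon and over all cells, PDE6H stood first on each chip. At day 60 ARR3 (3.52 RPKM), GNGT2 (3.42) and OPN1SW (3.19) followed GUCA1A and did not differ beyond their counting intervals, and at day 90 CNGB3 (7.01 RPKM) and GUCA1C (6.81) did not either. The order from the second place on changed between chips: GNB3 was second at day 60 and on D200b, and ARR3 at day 90 and on D200a.

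Cells that carried several of the genes together were rare at day 60 and common later. At 50000 reads per cell at least 5 of the 9 genes were detected in 1 of 578 cells at day 60 (0.173%), in 77 of 655 at day 90 (11.8%), in 39 of 356 on D200a (11.0%) and in 16 of 381 on D200b (4.20%). Without thinning the shares were 17.5% at day 90 and 17.4% on D200a. Of these cells 51 of 77, 30 of 39 and 15 of 16 were cone-like. Among cone-like cells the share was 2.08% at day 60 (0.0527 to 11.1), 53.7% at day 90 (43.2 to 63.98), 52.6% on D200a (38.97 to 66.02) and 48.4% on D200b (30.2 to 66.9). The 3 later intervals overlapped. At day 60, 89.6% of the cone-like cells had at least 1 of the genes and 35.4% at least 3.

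**Figure D4:**
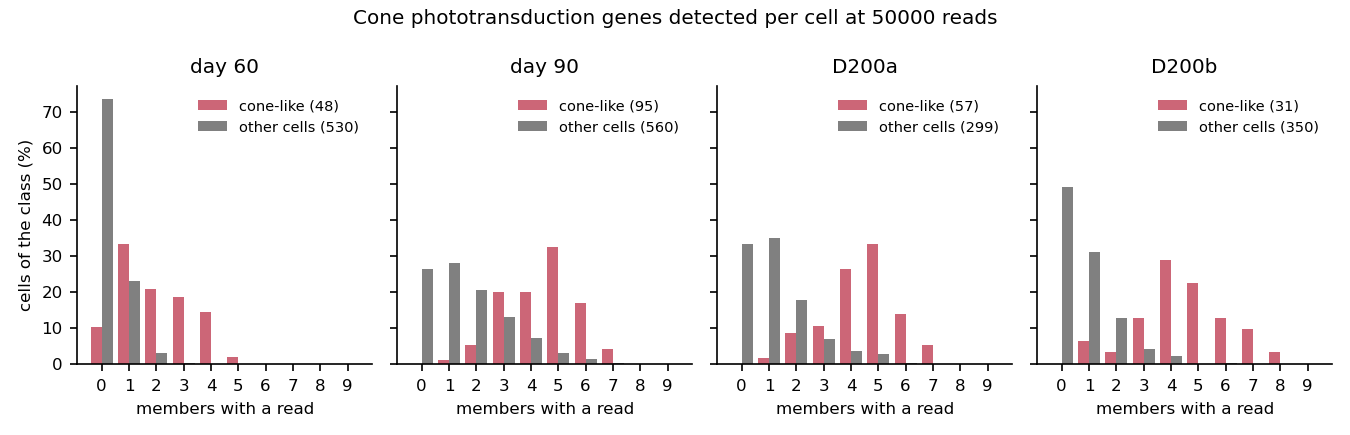
Share of cone-like cells and of all other cells by the number of the 9 genes detected after thinning each cell to 50000 reads, for each chip. The most common number in cone-like cells is 1 at day 60, 5 at day 90 and on D200a and 4 on D200b.

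Low numbers of reads were also found outside the photoreceptor clusters. At day 90 PDE6H was detected in 35.1% of the cells outside the cone-like, rod-like and VSX1 clusters (30.8 to 39.6) at 50000 reads, with a median of 4 reads in the cells that had any, against 422 reads in cone-like cells, at median depths of 158322 and 192298. The share was 2.36% at day 60, 18.4% on D200a and 12.9% on D200b. In the other direction TYRP1 had reads in 23.96% of the cone-like cells of day 90, with a median of 3 reads. Whether such reads come from other cells of the same column was not tested.

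In the rod-like cells the listed genes GNB3, GNGT2, PDE6H and GUCA1A were present as well. GNB3 was 553 CPM at day 90, 1479 CPM on D200a and 1157 CPM on D200b in the 23, 30 and 11 rod-like cells. PDE6H was 698, 511 and 192 CPM, GNGT2 345, 472 and 491 CPM and GUCA1A 317, 733 and 154 CPM. ARR3 was 202, 190.5 and 0.883 CPM. Single cells carried several of these values: 1 cell held 82.1% and 86.0% of the ARR3 reads at day 90 and on D200a, and 79.3% of those of PDE6H on D200b. With 1 column left out these levels were as low as 38.95 and 29.5 CPM for ARR3 and 45.6 CPM for PDE6H, and GUCA1A was as low as 162 CPM at day 90 and 65.9 CPM on D200b. OPN1SW, CNGB3 and GUCA1C were at or under 1.96 CPM in the rod-like cells of every chip. The VSX1 cluster had 359 CPM of GNB3 and 242 CPM of PDE6H at day 90.

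Most cone genes exceeded their rod forms in the cone-like cells when compared per kilobase of exon. PDE6H was 764-fold, 140-fold and 201-fold above PDE6G, its rod form, at day 90, on D200a and on D200b, and GNGT2 was 96.0-fold, 277-fold and 16.9-fold above GNGT1. GNB3 was 37.4-fold, 43.3-fold and 34.7-fold above GNB1, a subunit that many other cells use. SAG, the rod arrestin, had 0 reads in the cone-like cells of the 3 later chips, where ARR3 had 16015, 44249 and 8698 reads. GUCA1A was 58-fold, 43.6-fold and 20.5-fold above GUCA1B, the gene it was paired with here. Several cone genes exceeded their rod forms in the rod-like cells too. GNB3 was 12.6-fold, 8.27-fold and 8.8-fold above GNB1 there. GNGT2 was 7.07-fold and 9.45-fold above GNGT1 at day 90 and on D200a, but GNGT1 was 1.91-fold higher on D200b. GUCA1B had 0, 4 and 0 reads in the rod-like cells, where GUCA1A had 1136, 6033 and 348. In the cone-like cells GUCA1B had 204, 491 and 485 reads, so this pair did not divide into a cone and a rod form. ARR3 and SAG had 722 and 0 reads at day 90, 1567 and 778 on D200a and 2 and 34 on D200b.

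PDE6C and CNGB3 differed less from PDE6B and CNGB1, and not in 1 direction. PDE6C was 11.6 RPKM at day 90, 5.48 RPKM on D200a and 18.2 RPKM on D200b in the cone-like cells, and PDE6B, a catalytic subunit of the rod enzyme, was 8.05, 12.8 and 9.42 RPKM there, so PDE6C was 1.44-fold and 1.93-fold higher at day 90 and on D200b and lower on D200a. PDE6A, the other catalytic subunit of rods, had 4, 5 and 2 reads in those cells. CNGB3 was 1.28, 14.9 and 13.9 RPKM and CNGB1, the rod channel subunit, 10.2, 14.6 and 28.3 RPKM. In the rod-like cells both rod forms were far higher, with PDE6B at 44.7, 65.6 and 126 RPKM against 0, 2.64 and 0 RPKM of PDE6C. There PDE6H was 959.6 RPKM and PDE6G 78.3 RPKM at day 90, and they were 703 and 1102 RPKM on D200a. On D200b they were 264 and 203 RPKM, but 1 cell held 79.3% of these PDE6H reads. Without that cell PDE6H fell from 192 to 45.6 CPM, so the order on D200b rests on 1 cell.

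**Figure D5:**
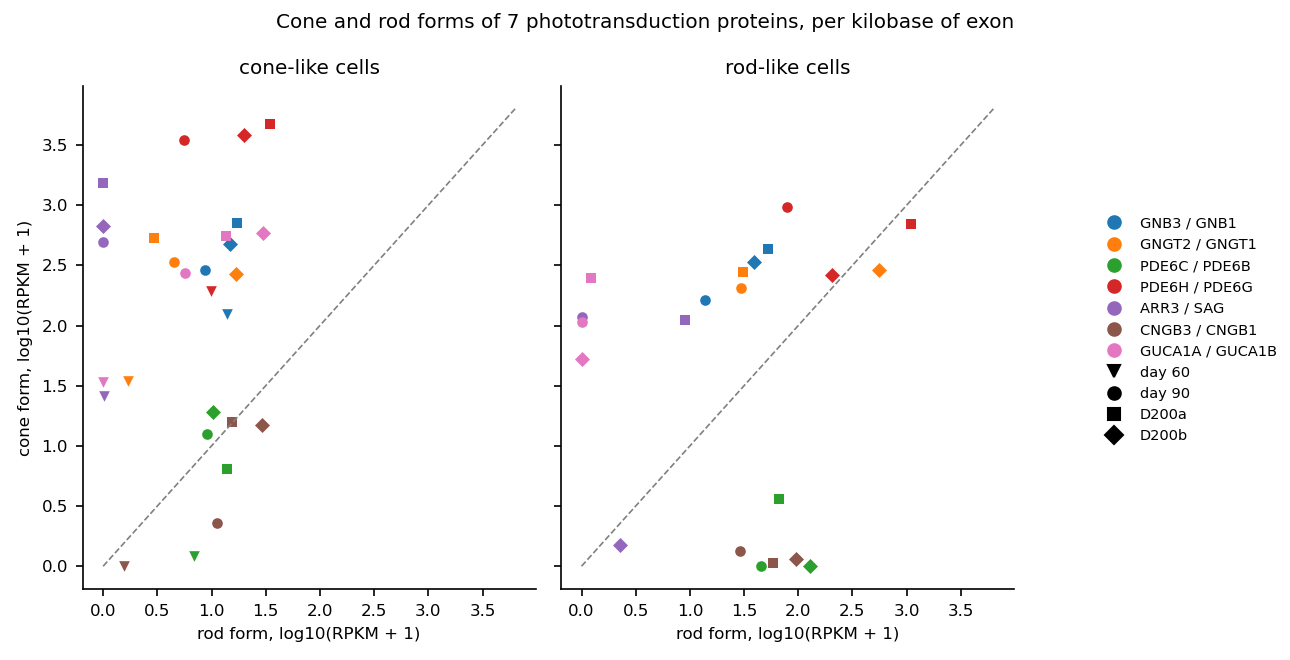
Level of 7 of the genes against their rod form, or for GUCA1A against the paired gene GUCA1B, in cone-like and rod-like cells. Values are per kilobase of exon, on log10 scales of RPKM + 1, with 1 symbol per chip. Points above the dashed line have more of the cone form. PDE6C and CNGB3 lie near the line or below it in cone-like cells, with PDE6C above it at day 90 and on D200b.

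Other genes of the pathway were counted by the same 4-fold rule, which 2.55%, 4.03% and 3.08% of all genes tested passed as higher at day 90, on D200a and on D200b. Of 16 further phototransduction genes of the table, 6 of 11 that could be tested were higher at day 90 than at day 60. The counts were 9 of 12 on D200a and 4 of 11 on D200b, and 0 were lower. A gene under 10 CPM at day 60 could not be called lower. Highest per kilobase in the cone-like cells were RCVRN (recoverin, 589.8 RPKM), PDC (phosducin, which binds transducin beta and gamma, 530.5 RPKM) and UNC119 (292 RPKM). CNGA3, the partner of CNGB3 in the cone channel, was 2.62 RPKM there, with reads in 7 of 232 cells. Of the rod genes 3 of 5, 4 of 6 and 3 of 5 were higher on the 3 chips, and PDE6G (16.6 RPKM), GNAT1 (12.4) and GNB1 (12.3) were highest in the cone-like cells. Of the regulators of cone fate 4 of 9, 2 of 8 and 1 of 8 were higher, and OTX2 (211 RPKM), NEUROD1 (88.8) and RXRG (51.5) were highest there. RCVRN and RXRG are on the marker list that named the cone-like cluster, so their places are partly set by that choice.

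Pairs of the genes were compared from cell to cell within the cone-like cells of a chip. OPN1SW was in no pair, and the genes compared were not the same on every chip, with 10, 28, 21 and 21 pairs on the chips in order of age. The median Pearson correlation of log2(CPM + 1) between pairs of genes was 0.22 over 48 cells at day 60, 0.14 over 96 cells at day 90, 0.18 over 57 cells on D200a and 0.24 over 31 cells on D200b. The highest was 0.73, between GNB3 and GNGT2 on D200b, and the same pair had 0.56 on D200a. Cells share their column and differ in depth, and many values are 0, so these correlations are a description only. Over all 1976 cells, the genes whose level was most like the mean of the 9 genes, among 12625 genes, were PDC (r = 0.69), IMPG2 (0.67), KCNV2 (0.66), AIPL1 (0.64), RD3 (0.63), CPLX4 (0.62), RCVRN (0.62), SEPT4 (0.61), FSTL5 (0.58) and TULP1 (0.58). IMPG2, AIPL1, RCVRN and SEPT4 among them are on the marker list that named the cone-like cluster. The rod-like cluster also had 5 genes of that list.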

How the data were processed

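Paired-end libraries of full-length cDNA from 79 chip columns were sequenced. According to the submitters' processing notes and the study's methods, reads were trimmed with Trimmomatic 0.33, aligned with STAR 2.4.0 to GRCh38 with GENCODE 25 and counted with HTSeq 0.6. The authors deposited raw counts of reads per gene for cells that passed their filters, without normalization. Clusters were rebuilt with Seurat 5.3.0 in R 4.3.3 by CCA alignment of 1000 variable genes per day at a resolution of 0.6, as in the study, in 20 dimensions, a number chosen here, and without the 9 genes, and named from lists of 10 markers with at least 3 of them. Reads were summed per chip or class as CPM without the spike-in row. RPKM used GENCODE 44 exon lengths. Detection was compared after thinning to 50000 reads, which left out 6 cells. Scrublet (scanpy 1.11.5) called 25 doublets, which were kept. Intervals were made with scipy 1.17.1. The genes, lists, comparisons and naming rules were chosen with earlier results of these data known. Named were the 9 genes, the 3 highest genes of each list in cone-like cells and the 10 genes most correlated with their mean, and CNGA3, TYRP1, CALU and CPNE3 and the rod forms were added with their values seen. The steps were tested on simulated data.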

Additional observations from a re-analysis of the deposited data

How the results depend on the processing

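No paired analysis was possible because no result comes from a test and a column number names a place on a chip, not a culture shared between chips. Adding the deposited spike-in row to the library size could hardly move a level, because that row was nearly empty. The row, named GFP-Spike, held 0% of the reads at day 60 and at day 90, 0.0165% on D200a and 0.00394% on D200b. This check therefore cannot show how the spike-ins added by the study bear on the levels. The study used a higher spike-in concentration and a looser spike-in filter at day 90, and the effect of this was not tested. The summed level of the 9 genes moved by less than the spread between columns as a mean of single cells, with at least 150000 reads and at most 10% mitochondrial reads, or without called doublets. With 1 column left out at a time it ran from 108 to 128 CPM at day 60, from 1225 to 1375 CPM at day 90, from 2398 to 2650 CPM on D200a and from 838 to 940 CPM on D200b. In cone-like cells, cells chosen by cone markers gave 2731 CPM at day 90 in place of 5874 CPM. The share of cells with at least 5 genes was 17.5% at day 90 and 17.4% on D200a without thinning, and 0 at day 60 under the read and mitochondrial filter. With at least 3 genes it was 3.29% at day 60, 34.8% at day 90, 25.8% on D200a and 13.6% on D200b. The count of genes past the 4-fold rule on D200b was 4 with a pseudocount of 10 CPM. Levels in cone-like and rod-like cells without 1 column or 1 cell were added after seeing the data. The causes were not tested. With 1 chip per day at days 60 and 90 and few cone-like cells, low genes rest on single cells.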

Other observations

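The rod gene GNGT1, the gamma subunit of rod transducin, was among the 10 leading genes of the RPE-like cluster. Its level was 1239.8 CPM (1223 to 1257) in the 78 RPE-like cells of day 90, with reads in 70 of them, against 8.00 CPM in the cone-like cells and 16.0 CPM in all other cells. On D200a it was 580.1 CPM in the 11 RPE-like cells and 4.47 CPM in the cone-like cells. TFPI2, a secreted protease inhibitor, was 1273 CPM in the RPE-like cells of day 90 and 2126 CPM on D200a. On D200b 5 of the 6 RPE-like cells had reads of GNGT1. Both genes were picked out here after their values were seen. The counting named no strand setting, and overlap of GNGT1 with other genes was not examined.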
